A study of Mus musculus with 15 samples.

Results

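The cytosolic ribosomal protein genes encode the protein subunits of the ribosome that translates mRNA in the cytoplasm. They were taken by name: every gene symbol made of Rpl or Rps, a number and at most a closing a or x, together with Rplp0, Rplp1, Rplp2 and Rpsa. This gave 76 of the 24015 listed genes, 46 of the large (60S) subunit and 30 of the small (40S) subunit. Fau, Gnb2l1 and Rps3a1 also encode or carry ribosomal proteins but lie outside the name rule, and they are described separately.

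RNA-seq was done on c57bl/6 mouse embryonic fibroblasts (MEFs), connective tissue cells cultured from the embryo, grown in DMEM with donor bovine serum and labelled NSD2 KO or WT. NSD2 is a methyltransferase of lysine 36 of histone H3, listed in these files under its older symbol Whsc1. Pretreated cells had interferon for 3 h and, after a wash, 24 h without it, and naive cells had none. Both were taken at 2 h of mouse recombinant IFNβ (100 units/ml) or at 0 h. The 8 groups were therefore KO and WT cells, pretreated or naive, at 2 h or 0 h, with 2 libraries each except KO naive cells at 2 h, which had 1. The labels do not say that replicates were separate cultures or how many KO and WT lines there were, so the p-values below rest on a spread among 15 libraries that may be technical, and line and genotype cannot be told apart.

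Ribosomal proteins are assembled in the nucleolus, in equal numbers per ribosome with few exceptions, onto rRNA made by RNA polymerases I and III. Their mRNAs are among the most abundant of growing cells and belong to the TOP class, which begins with a C followed by a run of pyrimidines through which mTOR and Larp1 control translation. Interferon signalling switches on antiviral genes and, through kinases and nucleases such as PKR and RNase L, can restrain translation, while the ribosomal protein genes themselves are not classical interferon targets.

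Pyrimidine runs lie near the annotated starts of members that were higher in KO cells and of members that were lower. Of the 76 members, 56 matched a RefSeq promoter entry (GRCm38.p6, 300 bases, 250 of them before the start). A run of 8 or more pyrimidines between 30 bases before and 50 bases after the start was found in 80.4% of these, against 32.3% of 27025 genes with an entry, and the longest run had a median of 10.5 bases against 6 bases. The windows of 30 bases below are from the 6 members with the largest rise and the 6 with the largest fall in KO cells among those with an entry. Of the falling members, Rpl26, Rpl34 and Rps27 had very low counts, so the sizes of their falls are uncertain. The fall of Rps27 also lost its call under another test, as given further below. The windows are read 5′ to 3′ on the gene's strand, with the longest pyrimidine run in capitals. The first 6 are of members higher in KO cells and lie at chr1:39367824-39367853 (plus strand), chr1:72711274-72711303 (plus), chr2:26910788-26910817 (plus), chr12:28635911-28635940 (minus), chr4:86857349-86857378 (minus) and chr8:123102324-123102353 (plus).
Rpl31: ctcgccacaCCTCTTCCTCCTCgcctcccc
Rpl37a: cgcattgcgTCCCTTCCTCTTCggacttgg
Rpl7a: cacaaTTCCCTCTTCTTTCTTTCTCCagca
Rps7: ctgtccccaCCTCTTTTCTTCCgccacccg
Rps6: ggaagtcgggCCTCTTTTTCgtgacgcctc
Rpl13: cgtgacgtcaCTTCCCTTTCgcctgatttt
The other 6 are of members lower in KO cells and lie at chr11:68901579-68901608 (plus), chr10:80292446-80292475 (plus), chr3:130730330-130730359 (minus), chr7:118116143-118116172 (minus), chr3:90213632-90213661 (minus) and chr10:128626485-128626514 (minus).
Rpl26: gcgtgtagTTCTCTTTCCTTTTgcggccat
Rps15: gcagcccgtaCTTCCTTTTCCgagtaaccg
Rpl34: acccgCCCCTTCCTTTTCCTCTTCCgggga
Rps15a: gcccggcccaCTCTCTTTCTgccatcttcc
Rps27: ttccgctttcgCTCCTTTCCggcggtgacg
Rps26: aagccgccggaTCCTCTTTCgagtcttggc
The longest run among the members, 21 bases, was that of Rpl7a. The printed runs begin 18, 14, 1 and 16 bases before the annotated start in Rpl31, Rpl7a, Rps6 and Rpl13, and 17, 15 and 2 bases before it in Rpl34, Rps15a and Rps27. They begin at base 24 of the annotated transcript in Rpl37a, 23 in Rps7, 22 in Rpl26, 26 in Rps15 and 4 in Rps26. They are thus runs near a start and do not show that the mRNA begins in them. Median run lengths were 11 bases in 30 members higher in KO cells, 10 bases in 19 lower members and 10 bases in the 7 members with no call. Of other motifs searched on both strands of the same windows, CCGGAAG, the core of ETS factor sites, was in 41.1% of members against 9.93% of genes, and AAGATGG, as in YY1 sites, in 16.1% against 7.28%. The core of the interferon-stimulated response element, a pair of GAAA with 2 bases between, was in 12.5% of members against 3.99% of genes, and its other strand can overlap a pyrimidine run. CACGTG, the E-box bound by Myc, was in 10.7% against 8.09%, and TATAAA in 10.7% against 15.7%. These are matches of letters in a window and show no binding.

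Gene counts per library ran from 17170845 to 44116418, and the 45S rRNA transcript Rn45s with Lars2 took 10.6% to 29.4% of them. Levels below are CPM, counts per 1000000 gene counts without those 2 genes. Whsc1 stood at 129 to 153 CPM in KO libraries and at 145 to 199 CPM in WT libraries, and since counts cover the whole gene they are no check of a partial deletion. All 13 fibroblast markers were listed, with summed levels of 16150 to 18900 CPM in KO libraries and 17010 to 22970 CPM in WT libraries. Vim had the highest median over the libraries, 6101 CPM, and Lum was nearly absent, with the lowest, 0.099 CPM. Averaged over the conditions, 12 of the 13 differed between KO and WT cells (8 higher, 4 lower), where 79.6% of all genes tested did (40.6% higher, 39% lower). Markers of other cell types summed to 68.3 to 96.1 CPM in KO libraries and 20.6 to 27.1 CPM in WT libraries for 7 nerve and muscle genes, mostly Tubb3, with Rbfox3 and Myod1 at 0. The sums were 1.28 to 2.31 CPM in KO and 3.69 to 6.15 CPM in WT libraries for 9 macrophage and blood genes, with Emr1, Hba-a1, Hbb-b1 and Cd3e among those at 0. They were 0.648 to 1.89 CPM in KO and 1.44 to 2.06 CPM in WT libraries for 5 endothelial genes, and 3.15 to 7.11 CPM in KO and 1.48 to 5.10 CPM in WT libraries for 6 epithelial genes. These marker differences run along the same KO and WT split as every comparison of genotypes below, and their part in the results was not tested.

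Every member was detected in every library, the lowest single count being 31. Levels, as means of the 8 group means, had a median of 682 CPM, and 21 members were above 1000 CPM. Rps2, at the mRNA entry of the small subunit, stood highest at 3732 CPM. It was followed by the stalk base Rplp0 at 2824 CPM, Rpsa, also known as the laminin receptor, at 2576 CPM, Rps12 at 1993 CPM, Rpl3 of the peptidyl transferase centre at 1696 CPM and Rpl4 of the exit tunnel at 1672 CPM. These 6 made up 23.3% of the family's counts. Rpl22 and Rpl37 were far lower at 271 and 259 CPM, and 4 members stood apart at the bottom: Rpl34 at 10.2, Rpl30 at 8.72, Rpl26 at 3.06 and Rps27 at 2.38 CPM.

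Per kilobase of transcript the order changed, since transcript lengths ran from 271 bases for Rps28 to 3706 bases for Rps20 with a median of 705 bases. Rps12 then led with 4035 CPM per kb, ahead of Rps2 with 3740, Rpl41, the shortest ribosomal protein, with 3247, and the stalk protein Rplp1 with 2435. The median was 951 CPM per kb, and Rpl34, Rpl30, Rps27 and Rpl26 remained the lowest at 21.2, 15.3, 6.90 and 5.81. Ribosomal protein genes have many processed pseudogenes, whose near-identical sequence can take or remove reads when only unique alignments are counted. Over the transcripts, a median of 60.6% of the 50-base stretches also occurred in another annotated gene. The share was 98.6% for Rps27, 71.3% for Rpl26, 76.4% for Rpl30 and 50.6% for Rpl34, but also above 90% for Rps12 and Rpl10, which were among the highest, and 2.96% for Rps3. The levels of genes sharing most of their sequence are therefore uncertain, and differences in them may include reads of their copies. Lengths and shared stretches are those of the annotated principal transcript of each gene, and which transcript these cells made was not tested. Where they differ, as may be so for the long entry of Rps20, the levels per kb and the shares are uncertain as well.

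The family as a whole took a slightly larger share of the counts in KO cells than in WT cells in each of the 4 conditions. Members summed to 65484 ± 738 CPM in KO naive cells at 0 h, against 60959 ± 1634 CPM in WT naive cells at 0 h (SD, n = 2 each). At 2 h the single KO naive library had 64847 CPM, against 61156 ± 793 CPM in WT naive cells (SD, n = 2). In pretreated cells at 0 h the sums were 65524 ± 2123 CPM in KO and 58651 ± 3881 CPM in WT cells, and at 2 h 62407 ± 1944 CPM in KO and 59366 ± 1390 CPM in WT cells (SD, n = 2 each). Within every condition each KO library lay above each WT library, while over all conditions the lowest KO library (pretreated 2 h, 61033 CPM) was below the highest WT library (naive 0 h, 62115 CPM). As shares of counts these are 6.10% to 6.70% in KO and 5.59% to 6.21% in WT libraries, and the mean KO sum was 1.08 times the mean WT sum. With Rn45s and Lars2 kept in the total the ratio was 1.05 and the libraries overlapped, at 45216 to 54295 CPM in KO and 41566 to 53482 CPM in WT libraries. TMM scaling sets libraries to a common level over the bulk of their genes. With it the sums were 60669 to 67364 CPM in KO and 54054 to 65025 CPM in WT libraries, again with overlap. Within every condition each KO library still lay above each WT library. The WT pretreated libraries at 0 h were the farthest apart, at 55906 CPM in replicate 1 and 61395 CPM in replicate 2. In every group with 2 libraries replicate 2 had the larger sum. The large subunit's sum was 1.39 to 1.41 times the small subunit's in KO libraries and 1.37 to 1.38 times in WT libraries. In these bulk samples, fewer cells of a type and less RNA per cell cannot be told apart.

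**Figure D1:**
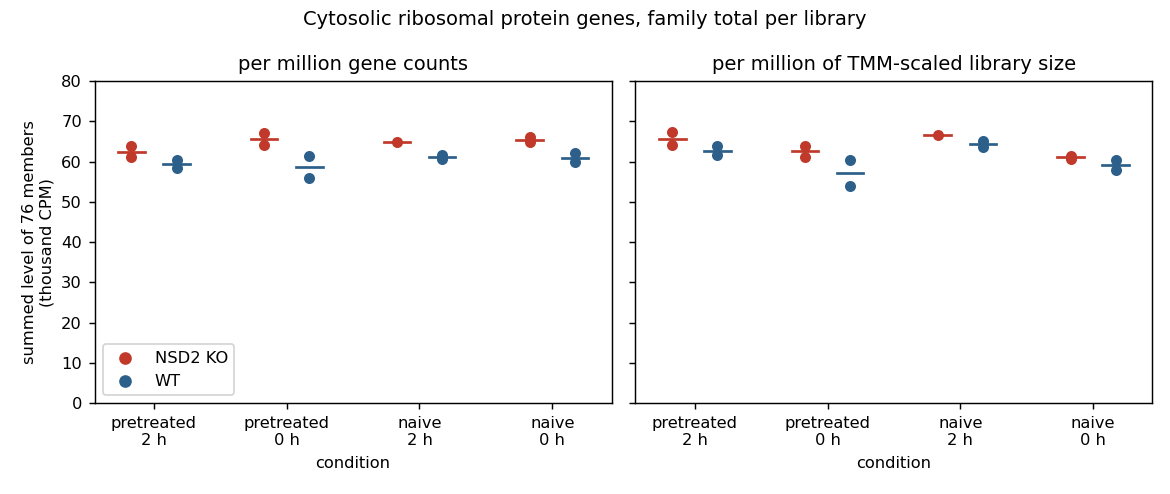
Summed level of the 76 cytosolic ribosomal protein genes (CPM of gene counts without Rn45s and Lars2) in each of the 15 libraries, by condition, with group means as bars, per gene counts on the left and per TMM-scaled library size on the right. On the left each KO library lies above each WT library of its condition, and the 2 WT pretreated 0 h libraries, at 55906 and 61395 CPM, are the farthest apart.

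The total hides differences in both directions, and the first question is which members differed between KO and WT cells. Averaged over the 4 conditions, 64 of 76 members passed the edgeR quasi-likelihood test at an adjusted p below 0.05, with 39 higher and 25 lower in KO cells. That is 84.2% of the members, beside 79.6% of all 13829 genes tested (40.6% higher, 39% lower), so being called sets the family apart little from the rest of the transcriptome. The median member change was 0.085 (log2), against 0.014 for all genes. Member changes ran from -0.58 to 0.56, and their median size regardless of sign was 0.20, against 0.37 for all genes tested. Scaling to library totals alone gave 42 higher and 20 lower, RLE size factors 41 and 21, and scaling from genes other than the members 39 and 25, again higher members first. With each library scaled to the members' own total, which centres the members by construction, the split was 32 higher and 32 lower. Of the 46 large subunit members 25 rose and 15 fell, and of the 30 small subunit members 14 rose and 10 fell.

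The strongest rises were those of proteins of the large subunit and a few of the small subunit. Rpl31, at the rim of the exit tunnel, had 319, 382 and 436 CPM (lowest, median and highest of 7 KO libraries), against 228, 255 and 291 CPM (8 WT libraries). All its KO libraries were above all its WT libraries, and the change was 0.56 ± 0.042 (log2, SE; edgeR adjusted p = 4.6e-13). Rpl7, which binds rRNA next to the 5S particle, had 1346, 1443 and 1532 CPM in KO and 938, 977 and 1065 CPM in WT libraries. The groups were again fully apart, with a change of 0.54 ± 0.023 (edgeR adjusted p = 6.6e-19). The zinc-binding Rpl37a had 483, 503 and 550 CPM in KO and 319, 345 and 362 CPM in WT libraries, without overlap, and rose by 0.53 ± 0.026.

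Rpl17, also at the tunnel rim, had 745, 805 and 863 CPM in KO and 509, 554 and 595 CPM in WT libraries (0.53 ± 0.030). Rpl7a, whose introns hold snoRNAs, had 1159, 1178 and 1212 CPM in KO and 791, 823 and 845 CPM in WT libraries (0.49 ± 0.022). Rps7, mutated in some cases of human Diamond-Blackfan anaemia, a failure of red cell formation caused by loss of 1 ribosomal protein allele, had 888, 945 and 1011 CPM in KO and 626, 676 and 686 CPM in WT libraries (0.49 ± 0.024). In all 3 genes the lowest KO library stood above the highest WT library. As measured facts on uniqueness, 75.1% of the 50-base stretches of Rpl31, 53.3% of Rpl7, 38.5% of Rpl37a, 78.7% of Rpl17, 81.2% of Rpl7a and 70.3% of Rps7 occur in other genes. Among the 26 members with under 50% of such stretches, 23 were called, 15 higher and 8 lower.

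The falls were fewer and most of them smaller. Rps15, in the head of the small subunit and mutated in some human chronic lymphocytic leukaemias, had 608, 654 and 679 CPM in KO libraries, against 821, 879 and 916 CPM in WT libraries. Its groups did not overlap, and it fell by 0.47 ± 0.026 on the log2 scale (edgeR adjusted p = 3.8e-16). Rps26, at the mRNA exit, had 412, 451 and 460 CPM in KO and 479, 519 and 584 CPM in WT libraries (-0.25 ± 0.033). Rps13, which binds 18S rRNA, had 370, 400 and 435 CPM in KO and 441, 475 and 495 CPM in WT libraries (-0.25 ± 0.027). These 3 genes were among the 4 members, all of the small subunit, with every KO library below every WT library. In the other direction 29 members had every KO library above every WT library, and the remaining 43 overlapped, where 16.9% of all genes tested lay fully below and 19.1% fully above.

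**Figure D2:**
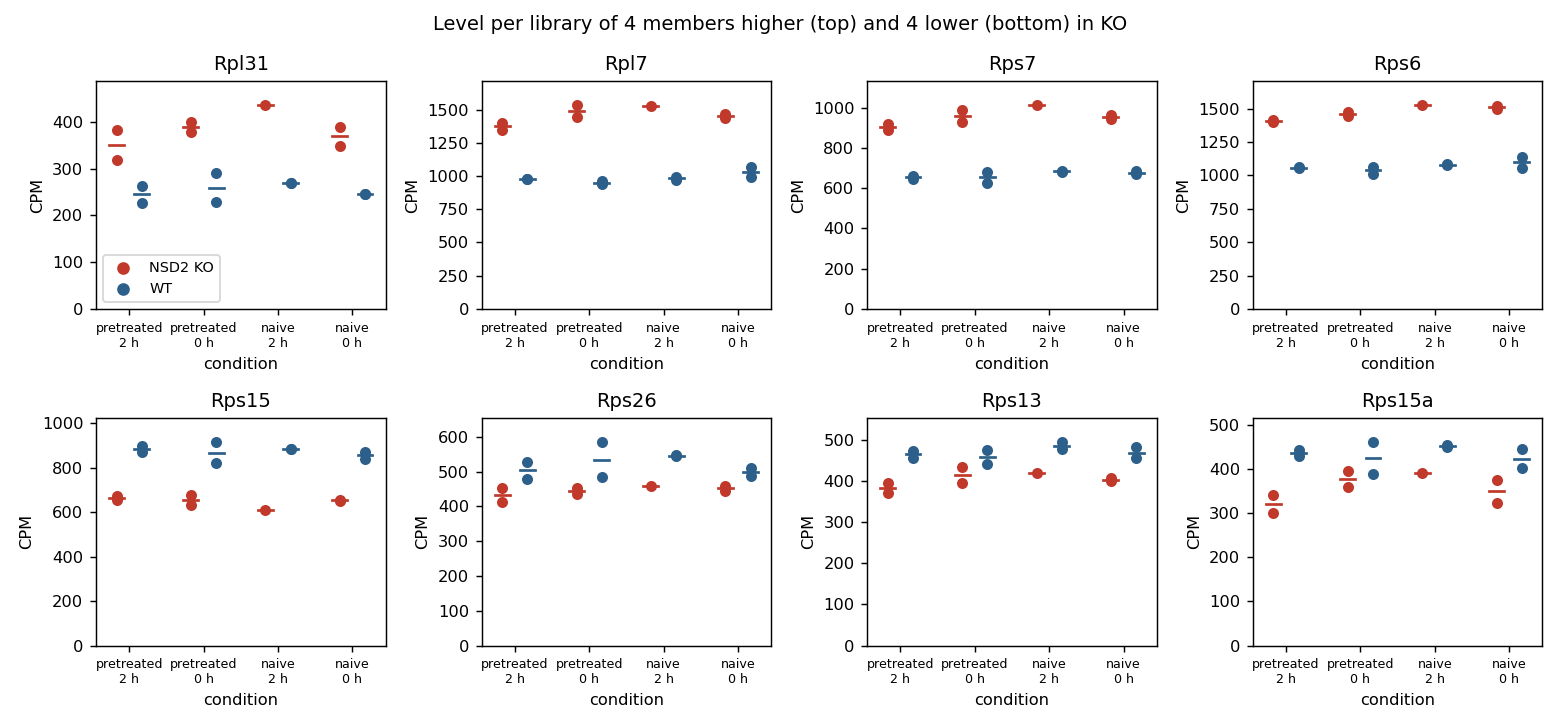
CPM of 4 members higher and 4 members lower in KO cells in each library, by condition, KO libraries left of WT libraries, with group means as bars on axes that start at 0. Members such as Rpl31 (319 to 436 CPM in KO, 228 to 291 CPM in WT) and Rps15 (608 to 679 CPM in KO, 821 to 916 CPM in WT) separate the genotypes in opposite directions.

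Members with the lowest levels fell as well, with wider errors. Rpl26, at the tunnel rim and a Diamond-Blackfan gene in humans, had 1.89 to 3.32 CPM in KO and 2.98 to 4.49 CPM in WT libraries, which overlapped, and its change was -0.58 ± 0.11. Rpl34 (-0.35 ± 0.070) and Rpl30 (-0.34 ± 0.065), whose yeast relative binds its own pre-mRNA, also fell. Rps27, a zinc-binding protein, fell by 0.27 ± 0.12, with an edgeR adjusted p of 0.046 that became 0.16 with DESeq2. Without these 4 members below 20 CPM, 60 of 72 were called, 39 higher and 21 lower.

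The stalk, which recruits the elongation factors to the ribosome, fell in all 3 of its members, named here after their values were seen. Rplp0 changed by -0.14 ± 0.023, Rplp1 by -0.21 ± 0.030 and Rplp2 by -0.17 ± 0.030. The libraries of all 3 overlapped. Rplp0 had 2556 to 2858 CPM in KO and 2713 to 3074 CPM in WT libraries. Rplp1 had 1062 to 1230 CPM in KO and 1135 to 1373 CPM in WT libraries, and Rplp2 had 386 to 455 CPM in KO and 419 to 495 CPM in WT libraries. By condition, Rplp0 and Rplp1 were called lower in 3 of 4 and Rplp2 in 2. Of the other abundant members, Rpsa (-0.18 ± 0.025) and Rpl4 (-0.10) fell and Rpl3 rose (0.11), and Rps2 had a change of -0.03 with an edgeR adjusted p of 0.19. Rpl19 (-0.15), Rpl18 (-0.17), Rpl41 (-0.21), Rpl32 (-0.25) and Rps15a (-0.30 ± 0.037) were lower in KO cells too.

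Several members have roles beyond the ribosome or in disease. Rps6, the substrate of S6 kinase downstream of mTOR, had 1402, 1478 and 1524 CPM in KO and 1013, 1061 and 1140 CPM in WT libraries and rose by 0.43 ± 0.023. Rpl5 and Rpl11, which with 5S rRNA bind Mdm2 and so link ribosome assembly to p53, rose by 0.11 ± 0.024 and 0.15 ± 0.026. Rpl11 did so without overlap, at 531 to 593 CPM in KO and 470 to 516 CPM in WT libraries. Of Diamond-Blackfan genes, Rps19 had 461, 494 and 547 CPM in KO and 335, 382 and 399 CPM in WT libraries and rose by 0.37 ± 0.030. Rps24 (0.36) and Rps29 (0.47 ± 0.043) also rose, whereas Rps26 and Rpl26 fell as given above. Rps14, lost in the human 5q- syndrome, rose by 0.40, at 727 to 799 CPM in KO and 522 to 602 CPM in WT libraries. Rpl13a, which in human myeloid cells leaves the ribosome after interferon gamma to silence mRNAs, rose by 0.09 ± 0.027, and Rpl38, needed for translation of Hox mRNAs in the mouse embryo, by 0.12 ± 0.030. Rpl22, which binds small RNAs of Epstein-Barr virus, rose by 0.15 ± 0.031, and the X-linked Rps4x by 0.24. Rpl10, which joins the subunit late, had -0.04 (edgeR adjusted p = 0.20), and Rps3, with a part in DNA repair, had -0.02 (edgeR adjusted p = 0.48).

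The same comparison was made in each condition, with no library shared between the 4 contrasts. KO naive cells at 0 h differed from WT naive cells in 50 members, 30 higher and 20 lower. That is 65.8% of members, beside 66.9% of all genes tested (33.7% higher, 33.2% lower). At 2 h in naive cells there were 46, 30 higher and 16 lower, or 60.5% beside 61.4% of all genes (31.2% higher, 30.1% lower). In pretreated cells at 0 h there were 51, 38 higher and 13 lower, or 67.1% beside 64.7% (33.4% higher, 31.3% lower). In pretreated cells at 2 h there were 51, 34 higher and 17 lower, or 67.1% beside 67% (34.4% higher, 32.5% lower). Scaled to the members' own total, centred as before, there were 24 higher and 24 lower at 0 h and 24 higher and 20 lower at 2 h in naive cells, and 24 higher and 24 lower at 0 h and 24 higher and 26 lower at 2 h in pretreated cells. Scaled to library totals alone, naive cells at 0 h had 37 higher and 14 lower. The share of members called was thus close to that of all genes in each condition. The lower counts turned on single libraries: in naive cells at 0 h the 20 became 12 without KO replicate 1. In pretreated cells at 0 h the 13 became 7 without KO replicate 1, 20 without WT replicate 1 and 4 without WT replicate 2. In pretreated cells at 2 h the 17 became 7 without KO replicate 1 and 7 without WT replicate 2. By DESeq2 the lower counts were 12 in naive cells at 0 h, and 8 at 0 h and 10 at 2 h in pretreated cells.

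By member, 38 had a positive and 25 a negative value in all 4 contrasts, and 13 had values of both signs. In all 4 contrasts 25 members were called higher, and 9 were called lower, among them Rpl18, Rpl19, Rpl32, Rpl41, Rps13, Rps15, Rps15a and Rps26. No member was called in opposite directions, and 15 were called in none. Rpl31, for example, had changes of 0.53, 0.66, 0.55 and 0.51 in naive 0 h, naive 2 h, pretreated 0 h and pretreated 2 h cells, and Rps15 had -0.45, -0.57, -0.44 and -0.42. Rpl26 was less even, at -0.60, -0.67, -0.88 and -0.15, the last not called. The 39 higher and 25 lower members had median transcript lengths of 775 and 583 bases, median shared stretches of 55.4% and 61.2%, and median levels of 739 and 538 CPM.

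**Figure D3:**
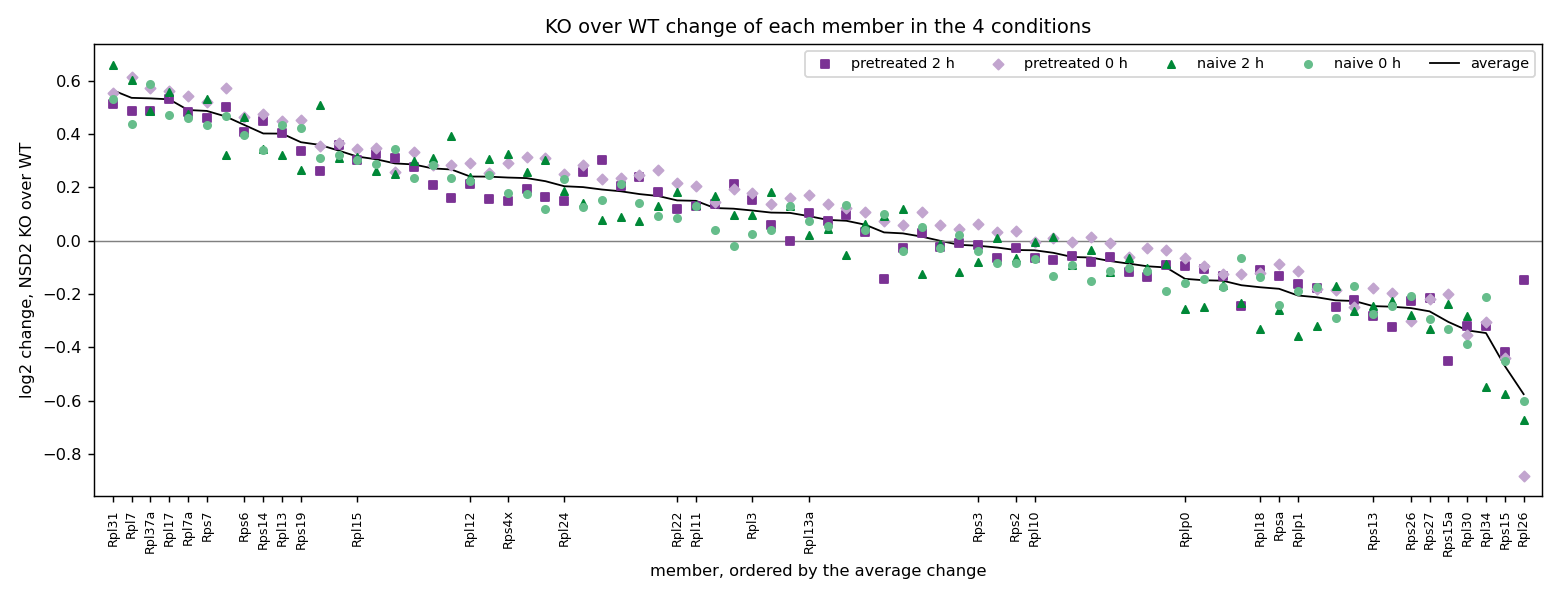
Change between KO and WT cells (log2, edgeR) of each of the 76 members, with 1 point per condition and a line for the average over the 4 conditions, in order of the average. Selected members are labelled. Averages run from 0.56 for Rpl31 to -0.58 for Rpl26, and 39 members are called higher and 25 lower.

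Genes that work with the ribosomal proteins were counted in the same comparison, where 40.6% of all genes tested were higher and 39% lower, and no test set these lists against the members. Of 60 ribosome biogenesis factors tested, 3 were higher and 53 lower in KO cells, with a median of -0.39 (log2). The nucleolar helicase Ddx21 had 238 to 300 CPM in KO libraries and 472 to 607 CPM in WT libraries and fell by 1.02 ± 0.022. The rRNA methyltransferase Nop2 fell by 0.88 ± 0.026 and the H/ACA snoRNP protein Nhp2 by 1.05 ± 0.032. Of 14 genes of RNA polymerase I and its factors 3 rose and 8 fell, among them the largest subunit Polr1a (-0.82), Rrn3 (-0.44) and Polr1d (-0.47). Eif6, which keeps the subunits apart, fell by 1.07 among 27 initiation factors of which 5 rose and 16 fell. Among these Eif3d fell by 0.57 and Eif4g3 rose by 0.85.

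Of 21 translation factors and other TOP mRNAs, which share the pyrimidine start with the ribosomal protein mRNAs, 5 rose and 12 fell with a median of -0.17, including Eif2s3x (-0.51), Eif3e (-0.48) and elongation factor Eef2 (-0.47). Of 74 mitochondrial ribosomal protein genes 15 rose and 48 fell with a median of -0.27, including Mrpl54 (-0.79), Mrpl19 (-0.66) and Mrpl42 (-0.65). Of 25 regulators of ribosomal protein synthesis 13 rose and 12 fell. Myc, which drives ribosome production, fell by 0.72 and Larp4, which protects mRNA tails, by 0.53, while Pdcd4, an inhibitor of translation initiation degraded after S6 kinase acts, rose by 0.80. Of 10 snoRNA host genes 5 rose and 3 fell, with Gas5, itself a TOP RNA, up by 0.30, Snhg1 down (-0.51) and Snhg12 down (-0.57). The median of the 76 cytosolic members was positive while those of the biogenesis, mitochondrial, TOP, polymerase I and initiation lists were negative, under all 5 scalings tried. The scaling to the members' own total, 1 of the 5, centres the members by construction (median 0.013), so their sign under it tells nothing. As in the members, the medians of 2 lists, snoRNA hosts and regulators, were positive at 0.07 and 0.14, and that of the snoRNA hosts turned to -0.0052 when scaled to the members' total.

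The genes outside the name rule did not share 1 direction either. Fau, which encodes Rps30 fused to a ubiquitin-like protein, had 521 to 616 CPM in KO and 723 to 789 CPM in WT libraries and fell by 0.46 ± 0.022. Gnb2l1, the scaffold protein RACK1 of the small subunit, had 2093 to 2256 CPM in KO and 1745 to 1969 CPM in WT libraries and rose by 0.18. Of the 4 paralogs tested, Rpl22l1 rose by 0.55, Rps27l fell by 0.33 and Rpl7l1 fell by 0.11.

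**Figure D4:**
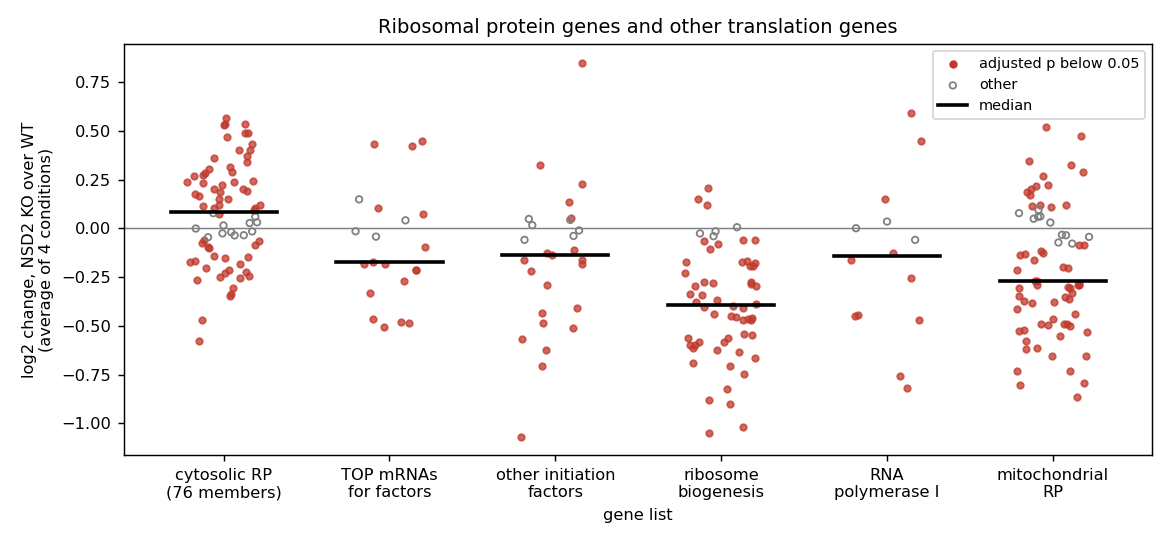
Change between KO and WT cells (log2, averaged over conditions) of each gene in the ribosomal protein family and in the related lists, with list medians. The family's median is 0.085, while that of the 60 biogenesis factors is -0.39 and that of the 74 mitochondrial ribosomal protein genes is -0.27.

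The second question is how cells at 2 h of IFNβ differed from cells at 0 h. With TMM scaling, which sets libraries to a common level over the bulk of their genes, the calls were all upward (edgeR quasi-likelihood, adjusted p below 0.05). In KO naive cells there was 1 library at 2 h, so the error of its calls assumes that it varies like the libraries of the other groups. There 31 members were higher and 0 lower, or 40.8% of members beside 36.4% of all genes tested (20.2% higher, 16.2% lower). In WT naive cells 32 were higher and 0 lower, or 42.1% beside 31.3% (17.9% higher, 13.4% lower). In KO pretreated cells 9 were higher and 0 lower, or 11.8% beside 31.5% (17.8% higher, 13.7% lower). In WT pretreated cells 30 were higher and 0 lower, or 39.5% beside 24.2% (15.5% higher, 8.73% lower).

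The direction of the whole family depends on the scaling. With TMM the median member change was 0.14 (log2) in KO naive, 0.13 in WT naive, 0.065 in KO pretreated and 0.13 in WT pretreated cells, with 68, 75, 66 and 74 of 76 members positive, whereas with library totals alone the medians were -0.0035, 0.011, -0.077 and 0.011. The calls with library totals were then 3 higher and 7 lower in KO naive cells, 3 higher and 0 lower in WT naive cells, 1 higher and 13 lower in KO pretreated cells, and 0 in WT pretreated cells. That scaling moved the median of all genes to -0.14 in KO naive, -0.11 in WT naive, -0.14 in KO pretreated and -0.09 in WT pretreated cells. Relative to the median of all genes the members' median was 0.14 higher in KO naive, 0.12 in WT naive, 0.066 in KO pretreated and 0.11 in WT pretreated cells with TMM, and 0.14, 0.12, 0.065 and 0.11 higher with library totals. A change of scaling shifts all genes nearly alike, so this match holds by construction and is no separate support. Relative to the members' own total, 3 members were called in KO naive, 2 in WT naive, 1 in KO pretreated and 0 in WT pretreated cells. TMM factors were 0.946 to 0.972 in libraries at 2 h and 1.02 to 1.07 at 0 h.

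At the level of summed CPM, without TMM, the family stood at 61156 ± 793 CPM at 2 h and 60959 ± 1634 CPM at 0 h in WT naive cells (SD, n = 2 each), a difference within the spread of the libraries. In WT pretreated cells it had 59366 ± 1390 CPM at 2 h and 58651 ± 3881 CPM at 0 h. In KO pretreated cells the sum was lower at 2 h, at 61033 and 63782 CPM against 64023 and 67025 CPM at 0 h. The single KO naive library at 2 h had 64847 CPM, against 64962 and 66006 CPM at 0 h. Some single members moved more. Rps23, of the decoding centre, had 378 CPM at 2 h and 306 and 346 CPM at 0 h in KO naive cells, a change of 0.35 ± 0.10 (edgeR adjusted p = 0.0075). In WT naive cells it had 357 and 336 CPM at 2 h and 290 and 295 CPM at 0 h, a change of 0.36 ± 0.086 (edgeR adjusted p = 0.0015). The 2 h libraries were above the 0 h libraries in naive cells of both genotypes. In pretreated cells the change of Rps23 was 0.10 in WT and -0.11 in KO cells, neither of them called. Its WT pretreated libraries at 0 h had 276 and 369 CPM. Its spread within groups, an SD of 10.2% of the mean, exceeded that between groups, 8.85%.

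Rpl31 had 436 CPM at 2 h and 350 and 390 CPM at 0 h in KO naive cells (0.37 ± 0.096), followed there by Rps15a, Rpl38 and Rps24 at 0.30 each. In WT naive cells Rpl37 had 313 and 291 CPM at 2 h and 267 and 241 CPM at 0 h (0.36 ± 0.095), and the stalk protein Rplp2 had 495 and 478 CPM at 2 h and 419 and 468 CPM at 0 h (0.25 ± 0.057). In both the lowest library at 2 h was above the highest at 0 h. Rpl37 had 240 and 332 CPM in the WT pretreated libraries at 0 h. The SD within groups was 11.6% of the mean for Rpl37 and 9.52% for Rpl31. Rpl31 and Rps26 rose by 0.24 each in WT naive cells.

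In KO pretreated cells the low-level Rpl26 had 3.3 and 3.3 CPM at 2 h and 1.9 and 2.5 CPM at 0 h (0.75 ± 0.21, edgeR adjusted p = 0.0063). With TMM, Rpl18, Rplp0 and Rpl19 rose there by 0.15, 0.13 and 0.11. In CPM, without TMM, Rplp0 was lower at 2 h (2738 and 2732) than at 0 h (2757 and 2746). Rpl19 was lower too, at 1164 and 1155 CPM against 1184 and 1186 CPM. Rpl18 had 636 and 636 CPM at 2 h and 633 and 635 CPM at 0 h. Scaled to library totals alone, which moved the median of all genes there to -0.14, Rplp0 and Rpl19 had -0.0087 and -0.031. They stayed above that median, as a nearly equal shift of all genes leaves them by construction. In WT pretreated cells the called members whose libraries did not overlap were Rpl6, with 1107 and 1114 CPM at 2 h and 1047 and 1102 CPM at 0 h (0.16 ± 0.042), Rpl27 (0.16 ± 0.043) and Rpl7 (0.15 ± 0.044). These changes are with TMM and exceed those in CPM, and under library totals alone no member was called in these cells. Gaps between groups of 2 libraries arise easily, so they are no separate support for a call.

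The counts of calls turned on single libraries. In KO naive cells the 31 became 12 without 0 h replicate 1. In WT naive cells the 32 became 6, 4 and 5 without 0 h replicate 1, 2 h replicate 1 and 2 h replicate 2, and 6 with the 3 libraries lowest in Rn45s and Lars2 left out. In KO pretreated cells the 9 became 4 without 0 h replicate 1 and 2 without 2 h replicate 2. In WT pretreated cells the 30 became 0 higher and 1 lower without 0 h replicate 1, and 67 higher without 0 h replicate 2, the library with the larger family sum. Without 2 h replicate 1 or 2 they became 5 or 0.

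Rpl19 was the 1 member called in all 4 interferon comparisons under TMM, 5 members were called in 3 (Rpl11, Rpl18, Rps2, Rps10 and Rps15), and 14 were called in none. The changes of Rpl19 were 0.13 in KO naive, 0.13 in WT naive, 0.11 in KO pretreated and 0.12 in WT pretreated cells. The member medians were 0.14, 0.13, 0.065 and 0.13, so its changes were close to those of the family except in KO pretreated cells. Rpl19 also had the smallest spread within groups of all members, with an SD of 1.57% of the mean. The difference of the interferon response between KO and WT cells was tested directly. In naive cells it passed for 1 member, Rpl18 (1.32% of members beside 15.3% of all genes). Rpl18 had 562 CPM at 2 h and 647 and 643 CPM at 0 h in KO naive cells, against 686 and 697 CPM at 2 h and 683 and 676 CPM at 0 h in WT naive cells. The response was -0.06 in KO and 0.14 in WT cells, a difference of -0.20 ± 0.068 (edgeR adjusted p = 0.049). This error too takes the spread at KO naive 2 h from the other groups, since that group is 1 library. In pretreated cells no member passed in edgeR (4 at an unadjusted p below 0.05, 0 by DESeq2), beside 9.01% of all genes.

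**Figure D5:**
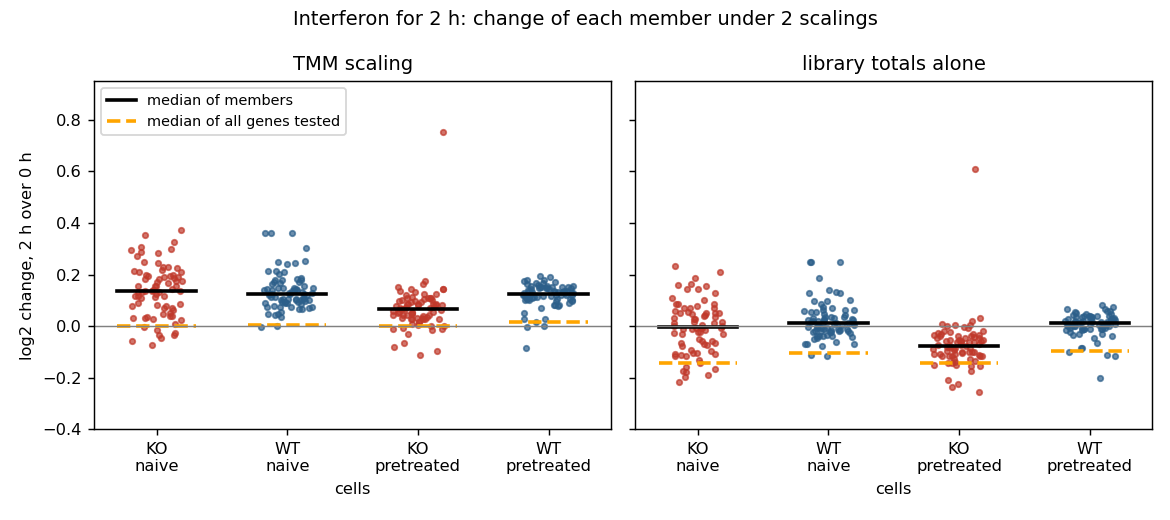
Change of each member at 2 h of IFNβ relative to 0 h (log2) in the 4 pairs of groups, under TMM scaling and under library totals alone. Black lines are medians of the members and dashed lines medians of all genes tested. Under TMM the member medians are 0.14 in KO naive, 0.13 in WT naive, 0.065 in KO pretreated and 0.13 in WT pretreated cells, whereas under library totals they are -0.0035, 0.011, -0.077 and 0.011. Their distance above the median of all genes stays nearly the same by construction, since a change of scaling shifts all genes nearly alike.

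The third question is how pretreated cells, 24 h after interferon was removed, differed from naive cells at 0 h. These comparisons share their 0 h libraries with the interferon comparisons above. WT pretreated cells had 5 members lower and 0 higher than WT naive cells at 0 h (6.58% of members beside 24.3% of all genes tested, 12% higher and 12.2% lower). Rpl10a had 634 and 695 CPM in pretreated and 754 and 753 CPM in naive WT cells, a change of -0.18 ± 0.045 (edgeR adjusted p = 0.0040). Rpl3 had 1503 and 1582 CPM in pretreated and 1705 and 1758 CPM in naive WT cells (-0.16 ± 0.044), and Rpl13a had 895 and 1013 CPM in pretreated and 1045 and 1107 CPM in naive WT cells (-0.17 ± 0.051). Rps18 and Rps9 changed by -0.13 ± 0.045 and -0.11 ± 0.042. In all 5 the pretreated libraries lay below the naive ones. Over all members this held for 16 of 76, or 21.1%, beside 31.3% of all genes tested. The count rested on single libraries: without WT pretreated 0 h replicate 1 it became 7 higher and 0 lower, without replicate 2 it became 21 lower, and without WT naive 0 h replicate 2 it became 1.

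In KO cells no member was called after pretreatment (edgeR; 5 at an unadjusted p below 0.05; 0 by DESeq2), beside 21.9% of all genes (12% higher, 9.93% lower), and no member differed in its response between KO and WT cells (9 at an unadjusted p below 0.05; 0 by DESeq2), beside 3.2% of all genes. The median member change was 0.04 in KO and -0.02 in WT cells. Ribosome biogenesis factors behaved otherwise: 41 of 60 were higher in pretreated than in naive cells and 0 lower, in KO cells and equally 41 in WT cells, with medians of 0.21 in KO and 0.18 in WT cells. Scaled to library totals alone there were 35 higher in KO and 38 in WT cells, and relative to the ribosomal proteins' own total 19 in KO and 32 in WT cells, with 0 lower in each. Among them were Wdr43 (0.38), Dkc1 (0.40) and Nop58 (0.34) in KO cells and Nolc1 (0.41), Nop2 (0.35) and Dkc1 (0.34) in WT cells, all of which act in the nucleolus.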

How the data were processed

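RNA was sequenced from 15 libraries of KO and WT MEFs in 8 groups. The authors deposited, for each library, a table of raw counts per gene symbol. Per the labels' protocols, libraries were made on a Mondrian SP with the Ovation SP Ultralow kit of NuGEN and sequenced from both ends on a HiSeq2000. The submitters' processing notes name bcl2fastq 2.15, the aligner STAR 2.5.2b, HTSeq and mm9. The strand setting and the annotation were not given in the sources used here, so overlapping and antisense genes are uncertain.

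The 5 HTSeq summary lines were left out (reads in no gene were 35.1% to 41.3% of unique reads). Rn45s and Lars2 were removed, and genes passing filterByExpr (minimum count 10) were kept, 13829 genes and all 76 members. edgeR 4.0.16 (R 4.3.3) quasi-likelihood models over the 8 groups (7 residual degrees of freedom, TMM factors 0.946 to 1.07) gave 14 comparisons, with Benjamini-Hochberg adjustment over all genes and a threshold of 0.05. Scripts were tested on simulated counts. Alternatives were other scalings, DESeq2 1.42.0, no filter, Rn45s and Lars2 kept, a replicate block, only the groups compared, and leaving out libraries. Tables and plots used Python 3.11.15, pandas 2.3.3 and matplotlib 3.10.9.

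Transcript lengths and shared 50-base stretches came from the principal transcript of each gene in a mouse annotation of GRCm38 and start windows from RefSeq (GRCm38.p6). Counts were made on mm9, so these describe the genes and no coordinates were converted. Members, lists and tests were chosen with earlier results of these data known. Named genes were the 6 highest and 6 lowest by level. In each comparison up to 6 called members each way with the largest change among those whose libraries did not overlap were added, as were members with roles outside the ribosome or in disease and up to 3 genes per related list with the smallest p. Overlap was judged in CPM, without TMM, and a gap in either direction sufficed. Rplp1, Rplp2, Rps15a, Rpl32, Rps29, Rps14, Rps24, Rpl41, Rpl18, Rpl19, and the members listed by how many comparisons called them, were named for the average over conditions after their values were seen.

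A few genes of the family and lists that enter the counts are not reported here by name. Replicate numbers were not taken to pair libraries, since 4 of 21 pairs of groups had a correlation of same-numbered deviations above 0.1 (range -0.03 to 0.19). That check ran over genes of the whole series. Within the family, replicate 2 had a larger summed CPM than replicate 1 in every group with 2 libraries. With a replicate block the interferon calls rose from 32 to 58 in WT naive and from 30 to 58 in WT pretreated cells. The single KO naive library at 2 h is a replicate 1, and the median member change there was 0.18 with the block and 0.14 without.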

Additional observations from a re-analysis of the deposited data

Results flagged for a closer look

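The interferon response of Rpl18, a large subunit protein, differed between genotypes in naive cells by -0.195 (log2, KO minus WT; SE 0.068; edgeR adjusted p = 0.049), which flagged it as a difference between groups under the same contrast. It had 562 CPM in the single KO library at 2 h, below both KO naive libraries at 0 h, while the WT libraries at 2 h lay above those at 0 h. The error assumes that this single library varies like those of the other groups. The call was kept in 6 of 16 alternatives and lost in 10.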

How the results depend on the processing

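Between KO and WT cells, counts of called members, both directions summed, stayed within 1.5 times in each condition and on average, while the lower counts alone moved by more under DESeq2 and without single libraries, as given above. Leaving out each library in turn gave 61 to 65 on average, 42 to 45 (naive 0 h), 39 to 44 (naive 2 h), 42 to 51 (pretreated 0 h) and 41 to 44 (pretreated 2 h), and a ratio of family sums of 1.06 to 1.09. Of members with under 50% shared stretches 23 were called, since fewer were counted. Over 87 named KO and WT results, 1484 of 1545 alternatives kept direction and side of the threshold, 54 lost and 6 gained a call, and Rps3, not called, turned to 0.014 under library totals alone. Rps27 lost its call under 17 alternatives. Calls of Rpl3, Rpl5, Rpl13a and Rpl38 were lost relative to the members' total.

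Interferon results moved most. Over 19 named interferon results, 177 of 254 alternatives kept direction and call, 75 lost the call and 2 changed sign. In WT naive cells the 32 became 3 (library totals), 2 (members' total), 17 (Rn45s and Lars2 kept), 16 (DESeq2), 58 (replicate block) and 6 (without the 3 libraries low in Rn45s and Lars2, chosen for that share), and 4 to 31 leaving out a library. In KO naive cells the 31 became 10, 3, 19 (DESeq2), 50 (replicate block) and 48 (only the groups compared), and 12 to 26. In WT pretreated cells the 30 became 18 (RLE), 0, 0, 11 (kept), 17 (DESeq2), 58 (replicate block) and 0 (groups compared), and 0 to 67. In KO pretreated cells the 9 became 14, 1, 14 (no filter) and 21 (replicate block), and 2 to 9. Rplp0 and Rpl19 there had -0.0087 and -0.031 under library totals, where all genes had a median of -0.14. Their place relative to that median hardly can change with the scaling, so it is no separate result.

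After pretreatment the 5 in WT cells became 0 (members' total), 3 (kept), 10 (no filter), 14 (replicate block) and 2 (groups compared), and 1 to 21. The 0 in KO cells became 1 (library totals), 5 (no filter), 7 (replicate block) and 3 (groups compared), and 0 to 1. Over 5 named pretreatment results, 45 of 70 alternatives kept direction and call and 25 lost the call. The 1 difference in naive response became 2 (library totals), 0 (scaling from other genes), 0 (members' total), 0 (kept), 3 (no filter), 10 (replicate block), 7 (groups compared) and 3 (without the 3 libraries), and 0 to 2. The difference in pretreated cells became 2 (no filter) and 1 (replicate block), and 0 to 6, and that of pretreatment 1 (no filter) and 3 (replicate block), and 0 to 5. The cause was not tested. Depth limits the 4 members below 20 CPM most.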

Other observations

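Rows named like the family but outside the rule were read as well. Rps3a1 had 1130 to 1302 CPM in KO and 911 to 1047 CPM in WT libraries, without overlap. The pseudogene rows Rps15a-ps6 and Rpl31-ps12 had 27.8 to 40.2 and 25.1 to 32.2 CPM in KO libraries, against at most 20.6 and 21.6 CPM in WT libraries. Rps15a-ps6 thus stood higher in KO cells, where Rps15a stood lower, whereas Rpl31-ps12 and Rpl31 both stood higher. Rpl14-ps1 overlapped, at 45.7 to 56.1 CPM in KO and 41.9 to 49.0 CPM in WT libraries. The rows Rpl10l, Rpl34-ps1, Rplp2-ps1 and Rps27rt held 0 counts in all libraries.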
